A study of Mus musculus with 4 samples.

Results

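Cholesterol genes were followed in cultures of mouse prefrontal cortex (PFC) grown with or without fibroblast growth factor 2 (FGF2). The set comprised 29 genes chosen by name, and every one of the 29 was found among the 55421 genes of the count files through its Ensembl identifier in GENCODE M21. By role, 17 code for enzymes of the synthesis route from HMG-CoA to cholesterol, 5 for sterol sensing and regulation, 5 for efflux and its LXR receptors, 1 for the acetoacetyl-CoA thiolase Acat2 and 1 for the sterol transfer protein Stard4. No lipoprotein receptor was among the 29, so uptake was described from a separate list of receptors. All 29 genes passed the expression filter and were tested.

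PFC tissue came from newborn (P0) wild-type (WT) C57BL/6 mice. It was dissociated with papain after the meninges and vessels had been peeled off, and cells were grown for 10 days in neurobasal medium with B27 and GlutaMAX. In 2 libraries the medium held FGF2 at 5 ng/mL and in the other 2 it held none, while strain, genotype, age and culture time were shared by both groups. The library titles number the replicates B1 and B2, replicates 1 and 2 here, and the methods of the study describe technical replicates for most of its samples. If the libraries of a group were technical replicates of 1 culture, the p-values measure only technical spread.

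Cells make cholesterol from acetyl-CoA through mevalonate, squalene and lanosterol, and the enzymes of this route are switched on together by the transcription factor SREBP2 when sterols in the endoplasmic reticulum are low. SCAP carries the SREBP precursors to the Golgi for cleavage, and the INSIG proteins hold SCAP back when sterols are abundant. Sterols in excess give rise to oxysterols, which activate the nuclear receptors LXR alpha and LXR beta. LXR targets such as ABCA1 and APOE then move cholesterol out of the cell. Plasma lipoproteins do not cross the blood-brain barrier, so the brain makes its own cholesterol. Astrocytes supply it to neurons on particles that hold APOE, and oligodendrocytes use much of it for myelin.

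The 4 libraries held between 9166432 and 10799886 counts on genes. Of the 17144 genes tested, 6949 (40.5%) passed an adjusted p-value of 0.05 after Benjamini-Hochberg adjustment of the quasi-likelihood test of edgeR, 3541 of them (20.7%) higher and 3408 (19.9%) lower with FGF2. Levels below are counts scaled to a common library total (CPM) by TMM, in the order replicate 1, replicate 2, and log2 fold changes are FGF2 over no FGF2, with their 95% confidence interval (CI). Cell type markers also differed between the cultures. All 13 tested oligodendrocyte lineage markers were higher with FGF2 (edgeR), and their summed level was 2574 and 2565 CPM with FGF2 against 651 and 664 CPM without it. Astrocyte markers summed to 13070 and 12940 CPM against 8167 and 8103 CPM, with 8 of 11 higher and 2 lower. Neuronal markers summed to 3857 and 3977 CPM against 5578 and 5559 CPM, with 10 of 12 lower and 1 higher. The libraries are bulk RNA, so a change in the number of cells of a type and a change in RNA per cell cannot be told apart.

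Of the efflux and LXR genes 4 of 5 rose with FGF2, while 15 of the 17 synthesis enzymes did not pass the test of edgeR. Of the 29 genes, 7 were higher, 2 were lower and 20 did not pass the test, where 20.7% of all tested genes were higher and 19.9% were lower. The share of higher members was thus near that of all genes, and the share of lower members was below it. The 7 higher genes were Abca1, Apoe, Nr1h2, Nr1h3, Insig1, Srebf1 and Msmo1, and the 2 lower genes were Acat2 and Sqle. In 9 of the 29 genes both FGF2 libraries lay above both libraries without FGF2, and in 8 they lay below, against 33.6% and 33.4% of all tested genes. The median log2 fold change was 0.80 over the 5 efflux and LXR genes, 0.11 over the 5 regulators and -0.04 over the 17 synthesis enzymes, against -0.00082 over all genes tested. Leaving out 1 library moved the median of the regulators to between 0.02 (without no FGF2 replicate 2) and 0.28 (without no FGF2 replicate 1), that of the synthesis enzymes to between -0.11 (without FGF2 replicate 1) and -0.04, and that of the efflux genes to between 0.67 and 0.89.

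**Figure D1:**
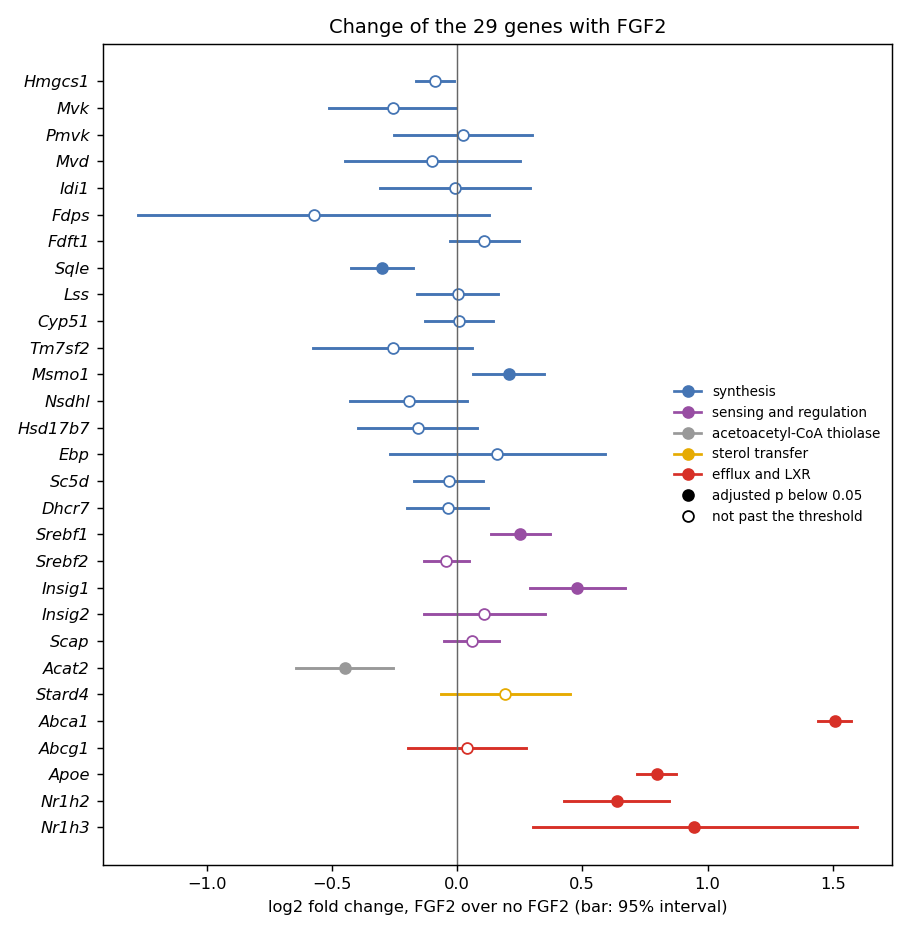
Log2 fold change (FGF2 over no FGF2, edgeR) of each of the 29 genes, grouped by role, with bars for the 95% confidence interval, colours for the role and filled points for an adjusted p below 0.05. Abca1 lies farthest to the right at 1.51, and most synthesis enzymes lie near 0.

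Abca1, the membrane transporter that loads cholesterol onto apolipoproteins, had the largest change of the 29 genes. The gene lies on chromosome 4 of mm10 from 53030787 to 53159895. It was counted 13428 and 14585 times with FGF2 and 5573 and 5543 times without it, or 1480 and 1483 CPM against 530 and 512 CPM. The level with FGF2 was 2.84 times the level without it, a log2 fold change of 1.51 (CI 1.44 to 1.57, adjusted p below 1e-300, edgeR). Both libraries of a group were close to each other and the groups were far apart. Of the 17144 genes tested, 476 (2.78%) had a larger log2 fold change. Per kilobase of exonic length, Abca1 went from 50.3 ± 1.26 to 143 ± 0.21 CPM per kb (SD, n = 2).

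Apoe codes for the main apolipoprotein of the brain, which carries cholesterol from astrocytes to other cells, and lies on chromosome 7 from 19696109 to 19699188. It stood at 3350 and 2912 CPM with FGF2 and at 1742 and 1861 CPM without it, 1.74 times higher with FGF2. The groups did not overlap, and the FGF2 libraries differed from each other more than the libraries without FGF2 did. The log2 fold change was 0.80 (CI 0.72 to 0.88, adjusted p = 1.2e-20, edgeR), and limma-voom gave 0.79 with an adjusted p of 0.058, which missed the threshold. Per length, Apoe was the most abundant of the 29 genes in both groups, at 1464 ± 145 CPM per kb with FGF2 and 843 ± 39.3 CPM per kb without it (SD, n = 2).

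The LXR genes were lower in abundance and also rose. Nr1h2, which codes for LXR beta and lies on chromosome 7 from 44549616 to 44553951, was at 41.1 and 43.0 CPM with FGF2 and at 27.4 and 26.7 CPM without it, a log2 fold change of 0.64 (CI 0.43 to 0.85, adjusted p = 2.1e-08, edgeR). Nr1h3, which codes for LXR alpha and lies on chromosome 2 from 91184061 to 91202834, had 44 and 45 counts with FGF2 and 31 and 21 counts without it. The groups did not overlap for either gene, but the counts of Nr1h3 were small. Its log2 fold change was 0.95 (CI 0.30 to 1.595, adjusted p = 0.012, edgeR). This call was lost with DESeq2 (adjusted p = 0.18), without FGF2 replicate 1 (0.90, adjusted p = 0.053, edgeR) and without no FGF2 replicate 2 (0.67, adjusted p = 0.22, edgeR).

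Abcg1, the transporter that passes cholesterol to lipoprotein particles that already hold lipid, was not called. It was at 24.9 and 27.3 CPM with FGF2 and at 24.3 and 26.5 CPM without it, and the groups overlapped. Its log2 fold change of 0.04 had a CI from -0.20 to 0.28 (adjusted p = 0.83, edgeR), so a change of the size of that of Abca1 lay outside the interval. Within each library the count of Abca1 was 59.4 and 54.4 times the count of Abcg1 with FGF2 and 21.9 and 19.3 times without it. That ratio does not depend on the scaling between libraries, and it was 2.77 times higher with FGF2.

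**Figure D2:**
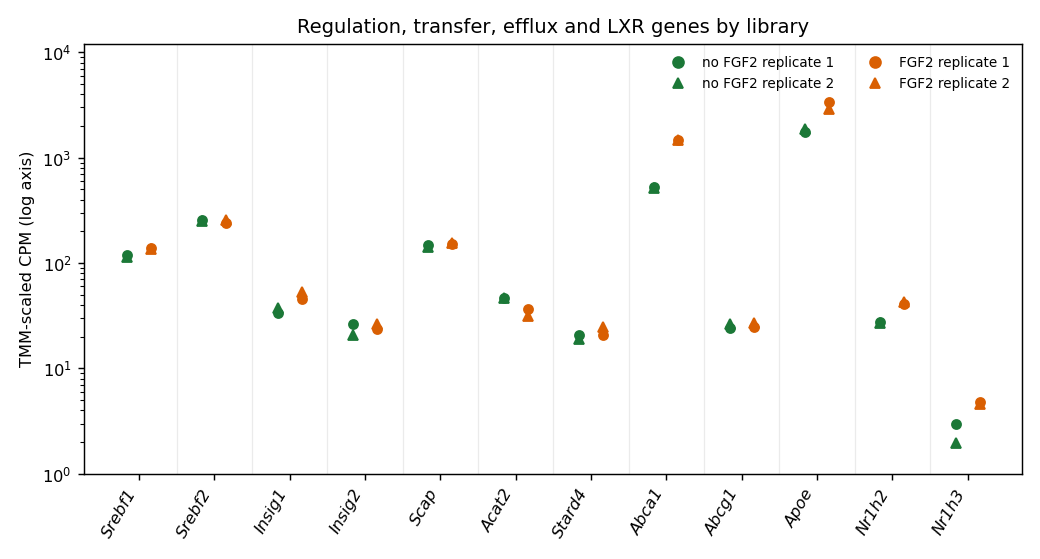
Level of each regulator, thiolase, transfer, efflux and LXR gene in each of the 4 libraries, in TMM-scaled CPM on a log axis, with 1 point per library. The FGF2 points of Abca1, Apoe, Nr1h2, Nr1h3, Insig1 and Srebf1 sit above both points without FGF2, and those of Acat2 sit below.

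Expression of the synthesis route was led by Hmgcs1, HMG-CoA synthase, which makes the substrate of the step that commits carbon to mevalonate. Per length it was the most abundant of the 17 enzymes, at 106 ± 0.48 CPM per kb without FGF2 (SD, n = 2), followed by Sqle at 21.7 ± 0.40, Cyp51 at 20.3 ± 0.95 and Fdft1 at 19.8 ± 0.38 CPM per kb. Cyp51 and Fdft1 differed by less than the SD of Cyp51, and Sqle lay above them by more than that SD. In the cultures with FGF2 the order of these genes differed, with Fdft1 at 21.4 ± 1.01, Cyp51 at 20.4 ± 0.52, Sqle at 17.7 ± 0.36 and Sc5d at 17.5 ± 1.26 CPM per kb (SD, n = 2). Sqle and Sc5d then differed by less than the SD of Sc5d. Without FGF2 Sc5d followed at 17.9 ± 0.82 CPM per kb (SD, n = 2). Msmo1, Dhcr7, Pmvk, Nsdhl and Mvk came next, between 12.3 and 9.14 CPM per kb. Then came Mvd, Lss, Hsd17b7, Idi1, Tm7sf2 and Ebp between 6.31 and 3.07, and last Fdps at 0.855 CPM per kb. The exonic length joins all annotated exons of a gene, so this order depends on the annotation. Lss, with 10787 exonic bases, had a mean of 60.32 CPM without FGF2. That was above Mvk at 24.45 CPM, though Lss lay below Mvk per length. The 17 enzymes summed to 1173 and 1158 CPM with FGF2 and to 1216 and 1214 CPM without it, and Hmgcs1 made up between 38.6% and 40.1% of that sum in each library. Of the 17 genes, 1 was higher, 1 was lower and 15 did not pass (edgeR). Over all tested genes 20.7% were higher and 19.9% were lower. Both FGF2 libraries lay above both others for 2 enzymes and below them for 7. Over all tested genes this held for 33.6% and 33.4%.

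None of the 6 early enzymes, from HMG-CoA to farnesyl diphosphate, passed the test of edgeR, where Hmgcs1 and Mvk had unadjusted p-values of 0.022 and 0.045, and DESeq2 did not call them either. Hmgcs1 was at 452 and 461 CPM with FGF2 and at 484 and 487 CPM without it. Its groups did not overlap, yet the difference was small, with a log2 fold change of -0.09 (CI -0.16 to -0.01, adjusted p = 0.054, edgeR). It passed the threshold with upper quartile scaling (adjusted p = 0.011), total count scaling (0.016), limma-voom (0.033) and without FGF2 replicate 2 (0.037). Mvk, mevalonate kinase, was at 22.3 and 18.7 CPM with FGF2 and at 26.3 and 22.6 CPM without it, a log2 fold change of -0.26 (CI -0.51 to -0.01, adjusted p = 0.099, edgeR). With 1 library left out, edgeR gave -0.39 for Mvk without FGF2 replicate 1 (adjusted p = 0.033), -0.14 without FGF2 replicate 2 (0.53), -0.15 without no FGF2 replicate 1 (0.55) and -0.37 without no FGF2 replicate 2 (0.071). Pmvk, phosphomevalonate kinase, overlapped between the groups, with 20.7 and 16.3 CPM against 18.5 and 17.8 CPM. Mvd, the decarboxylase that makes isopentenyl diphosphate, was at 11.02 and 10.88 CPM with FGF2 and at 11.99 and 11.45 CPM without it. Idi1, the isomerase of that product, was at 14.4 and 16.4 CPM against 15.4 and 15.6 CPM. A near copy of Idi1, Gm13502, shares 684 bases at 100% identity, so reads of Idi1 could be lost in the counting. The log2 fold changes of Pmvk, Mvd and Idi1 were 0.02, -0.10 and -0.01.

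Fdps, farnesyl diphosphate synthase, had few counts, 16 and 30 with FGF2 and 31 and 46 without it. In GENCODE M21, 6 other genes share at least 100 bases with it at 95% identity or more. Of these, Gm3571 shares 1062 bases at 98.9% identity and had between 8 and 23 counts per library. Another of the 6, Gm43738, is not a copy elsewhere but overlaps Fdps itself on the same strand over 1124 exonic bases. Reads of Fdps could therefore be lost or split in the counting, and its level and its log2 fold change of -0.57 (CI -1.27 to 0.13, adjusted p = 0.2, edgeR) are uncertain. The log2 fold change was -0.24 without FGF2 replicate 1, -1.03 without FGF2 replicate 2, -0.81 without no FGF2 replicate 1 and -0.29 without no FGF2 replicate 2.

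In the squalene and lanosterol steps the single gene to fall was Sqle, squalene epoxidase, which catalyses a rate-limiting oxidation of the route. Sqle, on chromosome 15 from 59315077 to 59331192, was at 99.3 and 96.5 CPM with FGF2 and at 122 and 119 CPM without it, with both FGF2 libraries below both others. The log2 fold change was -0.30 (CI -0.42 to -0.17, adjusted p = 1.6e-05, edgeR), and the level with FGF2 was 0.813 times that without it. Fdft1, squalene synthase, which acts just before Sqle, was at 93.5 and 87.4 CPM with FGF2 and at 82.7 and 85.0 CPM without it (log2 fold change 0.11, CI -0.03 to 0.25, adjusted p = 0.22, edgeR). Its exons overlap those of Ctsb on the opposite strand over 774 bases. A near copy of Fdft1, Gm6781, shares 1249 bases at 97.4% identity, so reads of Fdft1 could be lost as well. Lss, lanosterol synthase, which acts just after Sqle, was at 60.94 and 59.99 CPM with FGF2 and at 59.77 and 60.87 CPM without it. For Lss the CI of the log2 fold change ran from -0.16 to 0.16, so the upper bound of the interval of Sqle lay below the lower bound of that of Lss.

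The steps from lanosterol to cholesterol held 8 of the enzymes. Msmo1, the C4 methylsterol oxidase, was the 1 enzyme of the route that rose. Its gene lies on chromosome 8 from 64718139 to 64733792. It was at 83.2 and 91.4 CPM with FGF2 and at 76.0 and 75.6 CPM without it, a log2 fold change of 0.21 (CI 0.06 to 0.35, adjusted p = 0.014, edgeR). The groups did not overlap, but the call was lost with DESeq2 (adjusted p = 0.18) and in 3 of the 4 fits that left out a library, where edgeR gave 0.13 without FGF2 replicate 2 (adjusted p = 0.24), 0.21 without no FGF2 replicate 1 (0.093) and 0.20 without no FGF2 replicate 2 (0.11). Within a library the count of Msmo1 was 0.838 and 0.947 of that of Sqle with FGF2 and 0.622 and 0.636 without it, so these 2 enzymes moved apart in the same libraries.

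Cyp51, the lanosterol demethylase, was at 91.5 and 88.3 CPM with FGF2 and at 92.4 and 86.5 CPM without it (log2 fold change 0.01, CI -0.13 to 0.14). Sc5d, the sterol desaturase, was at 89.6 and 80.9 CPM against 84.3 and 90.0 CPM (-0.03, CI -0.17 to 0.11). Dhcr7, the reductase of the last step on one branch of the route, was at 62.4 and 58.3 CPM against 61.9 and 61.9 CPM (-0.04, CI -0.20 to 0.12). For these 3 genes the groups overlapped, and each CI stayed within 0.20 on the log2 scale. Ebp, the sterol isomerase, was low and overlapped as well, with 7.38 and 8.44 CPM against 8.09 and 6.10 CPM.

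Nsdhl, Hsd17b7 and Tm7sf2 were lower in both FGF2 libraries and did not pass the test. Nsdhl, which works with Msmo1 in taking off the C4 methyl groups, was at 25.4 and 25.0 CPM with FGF2 and at 30.7 and 26.9 CPM without it (log2 fold change -0.19, adjusted p = 0.19, edgeR). Hsd17b7, the ketoreductase of the same complex, was at 24.7 and 23.7 CPM against 25.6 and 28.3 CPM (-0.16, adjusted p = 0.32, edgeR). Tm7sf2, a sterol reductase, was at 12.7 and 12.5 CPM against 14.4 and 15.7 CPM (-0.26, adjusted p = 0.21, edgeR). Tm7sf2 shares 532 exonic bases with Vps51 on the same strand, so part of its reads may be ambiguous.

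**Figure D3:**
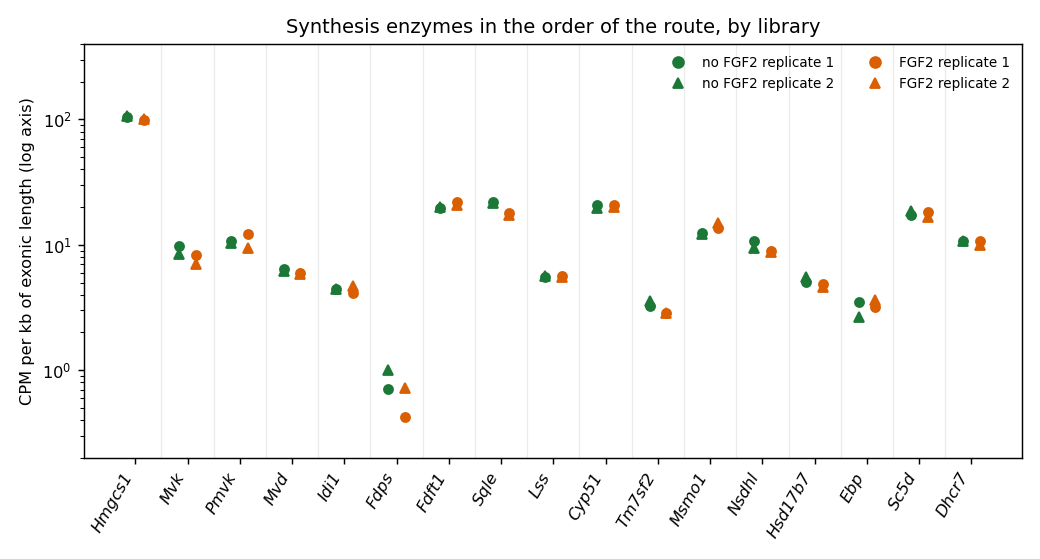
Level of the 17 synthesis enzymes in the order of the route, in TMM-scaled CPM per kb of exonic length on a log axis, with 1 point per library. Hmgcs1 stands above the rest with means of 99.4 CPM per kb with FGF2 and 106 CPM per kb without it, Fdps lies lowest, and the points of the groups are close for most enzymes.

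Acat2, the cytosolic thiolase that joins acetyl-CoA units ahead of HMG-CoA synthase, fell with FGF2. The gene lies on chromosome 17 from 12942890 to 12960747. It was at 37.0 and 31.5 CPM with FGF2 and at 46.9 and 46.4 CPM without it, with no overlap. The log2 fold change was -0.45 (CI -0.64 to -0.25, adjusted p = 3.2e-05, edgeR). A near copy, Acat3, shares 1477 bases at 97.7% identity and had 43 and 53 counts with FGF2 against 23 and 22 without it. The sum of both genes was still lower with FGF2, at 41.7 and 36.8 CPM against 49.0 and 48.3 CPM, or 0.807 times the level without FGF2, where Acat2 alone gave 0.734 times. Stard4, a soluble protein that moves sterols between membranes, was at 20.8 and 24.5 CPM with FGF2 and at 20.9 and 18.8 CPM without it (log2 fold change 0.19, adjusted p = 0.25, edgeR), and its groups overlapped.

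Of the 5 regulators, Insig1 and Srebf1 rose and the other 3 did not pass the test. Insig1, which retains SCAP in the endoplasmic reticulum and is itself a target of SREBP, lies on chromosome 5 from 28071363 to 28078662 and was at 45.9 and 53.4 CPM with FGF2 and at 33.6 and 37.6 CPM without it. The log2 fold change was 0.48 (CI 0.29 to 0.67, adjusted p = 3.7e-06, edgeR), and the groups did not overlap. Its relative Insig2, at 23.8 and 26.6 CPM against 26.2 and 20.7 CPM, overlapped between the groups (0.11, CI -0.13 to 0.35, adjusted p = 0.52, edgeR).

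Srebf1 codes for SREBP1, whose isoforms act mostly on fatty acid genes. On chromosome 11 from 60199089 to 60222581, it was at 139 and 137 CPM with FGF2 and at 118 and 114 CPM without it, a log2 fold change of 0.25 (CI 0.14 to 0.37, adjusted p = 0.00011, edgeR). Srebf2, which codes for the factor of the cholesterol genes, was at 239 and 255 CPM against 256 and 253 CPM (-0.04, CI -0.13 to 0.05, adjusted p = 0.49, edgeR). Srebf1 and Srebf2 thus differed in their groups, the first without overlap and the second with it, and the count of Srebf1 per count of Srebf2 was 0.582 and 0.539 with FGF2 against 0.461 and 0.45 without it. Scap, the escort of both SREBP precursors, was at 150 and 154 CPM against 149 and 143 CPM (0.06, CI -0.05 to 0.17, adjusted p = 0.43, edgeR). RNA levels do not show how much SREBP was cleaved.

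Set against the synthesis enzymes within a library, Abca1 stood higher in the cultures with FGF2. The level of Abca1 per summed level of the 17 synthesis enzymes was 1.26 and 1.28 with FGF2 and 0.436 and 0.422 without it. Abca1 counts per count of Hmgcs1 were 3.27 and 3.22 against 1.10 and 1.05, a ratio 3.02 times higher with FGF2. The synthesis sum and Hmgcs1 differed little between the groups, so both ratios mostly restate the change of Abca1. They do not stand for efflux as a whole, as the transporter Abcg1 was not called (log2 fold change 0.04). Apoe rose less than Abca1, so that there were 2.26 and 1.96 counts of Apoe per count of Abca1 with FGF2 and 3.28 and 3.63 without it.

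Promoter sequences are shown for Hmgcs1, the gene with an SREBP match, and for Acat2, Insig1 and Abca1, the most changed genes of the thiolase, regulator and efflux groups, so that motif letters can be set beside the changes. They are from RefSeq on GRCm38.p6, 5′ to 3′ on the gene's strand, end at the RefSeq start or just before the first exonic base of GENCODE M21, and carry capitals where a motif of SREBP, NF-Y or the E-box matched on either strand.
Hmgcs1, chr13:119690101-119690350, plus strand: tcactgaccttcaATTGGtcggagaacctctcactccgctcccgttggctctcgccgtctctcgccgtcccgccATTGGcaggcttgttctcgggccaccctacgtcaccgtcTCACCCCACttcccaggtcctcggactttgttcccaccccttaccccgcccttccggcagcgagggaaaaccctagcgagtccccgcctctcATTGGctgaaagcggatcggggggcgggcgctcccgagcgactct
Acat2, chr17:12960748-12960975, minus strand: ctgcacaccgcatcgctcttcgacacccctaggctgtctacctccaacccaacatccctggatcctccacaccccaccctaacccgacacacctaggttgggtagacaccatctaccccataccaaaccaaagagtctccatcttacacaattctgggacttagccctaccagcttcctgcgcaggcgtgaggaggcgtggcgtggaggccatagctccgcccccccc
Insig1, chr5:28071162-28071362, plus strand: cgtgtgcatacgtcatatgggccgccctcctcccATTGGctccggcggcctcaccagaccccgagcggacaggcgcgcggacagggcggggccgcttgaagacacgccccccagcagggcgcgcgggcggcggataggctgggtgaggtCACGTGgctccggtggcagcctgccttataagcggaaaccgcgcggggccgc
Abca1, chr4:53159896-53160145, minus strand: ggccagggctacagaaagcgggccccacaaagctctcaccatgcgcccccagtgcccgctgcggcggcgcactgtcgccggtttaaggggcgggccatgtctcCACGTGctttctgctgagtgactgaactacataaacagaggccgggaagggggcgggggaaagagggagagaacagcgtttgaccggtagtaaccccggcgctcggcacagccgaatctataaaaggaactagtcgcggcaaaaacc

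In Hmgcs1 the SREBP letters TCACNCCAC matched at position -137 from the RefSeq start, between matches of the NF-Y box CCAAT at -176 and -45. In Insig1 a CCAAT match on the opposite strand stood at -216 and an E-box at -101. The window of Abca1 held 1 E-box at -147, and that of Acat2 held none of these letters. Motif letters were then counted on both strands in 300-base windows, from 250 bases before to 50 after the start. The set of RefSeq promoters used held windows for 24 of the 29 genes. It held none for Fdps, Fdft1, Sqle, Stard4 and Abcg1, so no letters were read for them. A gene with several RefSeq starts has several windows and was counted where any of them held the letters. CCAAT was present for 14 of 14 synthesis enzymes and for 4 of 10 other genes (Srebf1, Srebf2, Insig1 and Insig2), against 42.9% of tested genes. For Dhcr7 it was in 1 of 3 windows. TCACNCCAC was present for Hmgcs1 alone, against 1.39% of tested genes. SREBP sites may differ from these exact letters or lie elsewhere. The lack of a match does not show that a gene has no such site. GGGCGG, the Sp1 box, was present for 20 of 24 genes against 67.8% of tested genes, and the E-box CACGTG for 6 of 24 (Hsd17b7, Sc5d, Dhcr7, Insig1, Scap and Abca1) against 11.2% of tested genes. An LXR element, 2 direct AGGTCA repeats 4 bases apart, matched for 0 of the 24 genes and for 4 of 27025 genes in all. Among the 11379 tested genes with a window it matched for 0. Known LXR elements may differ from these letters or lie elsewhere. With matches this rare, the lack of these exact letters does not show that a window, such as that of Abca1, lacks an LXR element. Among the genes that rose, Msmo1, Insig1 and Srebf1 had CCAAT in a window, and Abca1, Apoe, Nr1h2 and Nr1h3 did not.

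Genes around the route were read from lists of 64 further genes, of which 59 were tested, 20 were higher and 12 were lower (edgeR). Over all tested genes 20.7% were higher and 19.9% were lower, and the share of lower genes in these lists was close to the latter. Fatty acid synthesis, the other branch under SREBP control, had 5 of 9 genes higher and the other 4 not called, with a median log2 fold change of 0.25. Scd1, stearoyl-CoA desaturase, was at 159 and 159 CPM with FGF2 and at 117 and 121 CPM without it (0.41, adjusted p = 7.2e-12, edgeR). Elovl5, a fatty acid elongase, was at 125 and 131 CPM against 94.1 and 98.4 CPM (0.41, adjusted p = 8.4e-10, edgeR). Fads2, a desaturase of polyunsaturated fatty acids, was at 821 and 765 CPM against 629 and 613 CPM (0.35, adjusted p = 2.9e-22, edgeR). The other 2 genes that rose were Scd2 (0.34) and Fads1 (0.25), both desaturases. The 4 that were not called were Fasn (-0.04) and Acaca (0.05), which act in making the fatty acid chain, Acacb (-0.21), and the elongase Elovl6 (-0.10).

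The acetyl-CoA and isoprenoid list had 2 of 6 tested genes higher and 2 lower. Acss2, which makes acetyl-CoA from acetate, rose by 0.39 on the log2 scale (adjusted p = 0.0023, edgeR), and Ggps1, which makes geranylgeranyl diphosphate, rose by 0.18 (adjusted p = 0.02, edgeR). Pdss1, which makes the ubiquinone side chain, changed by -0.61 (adjusted p = 0.0019, edgeR). Among the genes of SREBP processing, Mbtps1, the first protease that cuts SREBP, was higher by 0.16 (adjusted p = 0.025, edgeR), and 6 of 8 were not called. Of 4 further sterol enzymes and partners 1 was higher, Cyb5r3, which passes electrons to the desaturases (0.36, adjusted p = 6.9e-13, edgeR).

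Uptake receptors did not move in 1 direction. Of 5 tested lipoprotein receptors, 1 was higher, 2 were lower and 2 were not called. Lrp1, a receptor of APOE particles, was at 1357 and 1373 CPM with FGF2 and at 1066 and 1058 CPM without it (0.36, adjusted p = 5.4e-28, edgeR). Lrp8, a receptor of APOE and reelin found on neurons, was at 206 and 213 CPM against 328 and 321 CPM (-0.63, adjusted p = 9.9e-43, edgeR). Sorl1, a sorting receptor, changed by -0.20 (adjusted p = 0.00028, edgeR). Lrp8 fell beside the neuronal markers, of which 10 of 12 were lower, and Lrp1 rose beside the astrocyte and oligodendrocyte markers. Their part in these changes was not tested.

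Inside the cell, 5 of 11 genes of cholesterol transport and storage were higher and 2 were lower. Npc2, which hands cholesterol out of the lysosome, was at 111 and 107 CPM with FGF2 and at 73.7 and 65.9 CPM without it (0.65, adjusted p = 6.2e-19, edgeR). Stard5, a sterol transfer protein, rose by 0.62 (adjusted p = 0.00032, edgeR), and Lipa, the lysosomal lipase that frees cholesterol from its esters, rose by 0.56 (adjusted p = 0.00056, edgeR). Of 3 tested oxysterol enzymes, Cyp7b1, which breaks oxysterols down, was at 19.2 and 18.4 CPM against 10.2 and 10.8 CPM (0.84, adjusted p = 9.8e-07, edgeR). Cyp46a1, which turns cholesterol into an oxysterol in neurons, was at 41.7 and 35.7 CPM against 58.4 and 59.5 CPM (-0.61, adjusted p = 1.8e-10, edgeR).

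Of 13 further lipoprotein and efflux genes, 3 were higher and 5 were lower, with a median log2 fold change of -0.06 against 0.80 over the 5 efflux and LXR genes above. Clu, an astrocyte apolipoprotein, was at 1200 and 1142 CPM with FGF2 and at 839 and 855 CPM without it (0.47, adjusted p = 1.4e-43, edgeR). Abca7, a relative of Abca1, rose by 0.49 (adjusted p = 0.0037, edgeR). Lcat, which esterifies cholesterol on particles, was low in both groups and changed by -0.88 (adjusted p = 0.00093, edgeR).

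**Figure D4:**
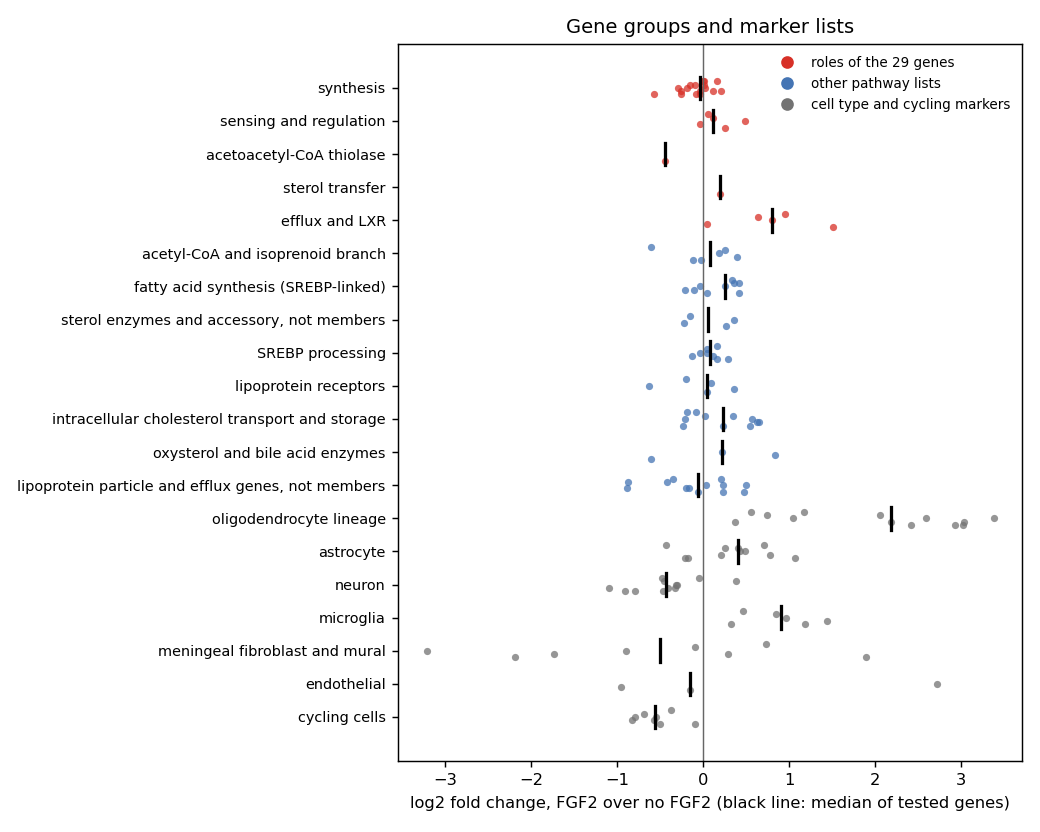
Log2 fold change (FGF2 over no FGF2, edgeR) of every tested gene in the 5 roles of the 29 genes, in the other pathway lists and in the marker lists, with 1 point per gene and a black line at the median of each list. The medians lie at -0.04 for the synthesis enzymes and 0.80 for the efflux and LXR genes, and at 2.18, 0.41 and -0.44 for the oligodendrocyte, astrocyte and neuronal markers.

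Markers of several cell types differed between the same libraries. Among the astrocyte markers Gfap changed by 1.06 and Aqp4 by 0.78 on the log2 scale, Fgfr3 and Slc4a4 were lower (-0.44 and -0.22), and S100b was not called (-0.18). Of the oligodendrocyte markers Cldn11 changed by 3.38 and Enpp6 by 3.02. Tubb3 and Rbfox3, markers of neurons, changed by -1.10 and -0.90, while Nefl was higher (0.38) and Nefm was not called (-0.05). Microglial markers, which mark cells that express Apoe and Abca1 as well, summed to 37.3 and 41.1 CPM with FGF2 and 24.4 and 24.4 CPM without it, with 4 of 6 tested markers higher and with P2ry12, Tmem119, Aif1 and Itgam below the expression filter. Cycling markers summed to 209 and 210 CPM against 283 and 281 CPM, with 7 of 8 lower. Fibroblast and mural markers summed to between 64.6 and 68.2 CPM with FGF2 and between 55.9 and 56.7 CPM without it, but 2 of 8 tested were higher and 3 lower, with a median log2 fold change of -0.50. Most of that sum was Pdgfrb, at 49.2 and 46.6 CPM against 28.7 and 28.9 CPM, while Col1a1 (-2.18), Col1a2 (-1.73) and Vtn (2 and 2 counts against 26 and 18) were lower and Rgs5 was higher (1.89). Of 3 tested endothelial markers Flt1 was higher, with 52 and 36 counts against 6 and 9, Kdr was lower (-0.95, adjusted p = 0.048, edgeR) and Pecam1 was not called, and Cldn5 was at 0 counts in each library. The summed synthesis level moved less than any of the oligodendrocyte, astrocyte or neuronal sums. The part of these cell types in the changes of Abca1, Apoe, Nr1h2, Nr1h3, Insig1, Srebf1, Msmo1, Sqle and Acat2 was not tested.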

How the data were processed

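Per the labels and the methods of the study, total RNA libraries were sequenced as read pairs, and the authors mapped reads to mm10 with HISAT2 2.1.0, filtered them on mapping quality with Samtools and ran HTSeq 0.11.2 for the counts. The deposited values are raw counts per gene, without normalization, for 2 libraries with FGF2 and 2 without it. Which annotation release and strand option HTSeq was given is not given in the sources used here. In the files, a count was found for 4 of 669 genes whose exons are covered to at least 98% from the same strand, and for 164 of 477 covered from the opposite strand. Multi-mapping reads are lost with the mapping quality filter, so genes with near copies can be counted too low. Of the 29 genes, 11 shared at least 100 bases at 95% identity or more with another gene (BLAST 2.17.0). For Hmgcs1, Lss, Cyp51, Tm7sf2, Srebf1 and Scap the only such gene overlaps the member's own exons, so it is not a copy elsewhere.

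The 55421 listed genes were matched to GENCODE M21 by identifier (55240 matched), and 5 tallies that name no gene were left out. Read pairs in no feature made up 43.2% to 45.9% of each library. The 17144 genes passing the expression filter of edgeR 4.0.16 (R 4.3.3) were tested with its quasi-likelihood test with TMM scaling, robust estimation and Benjamini-Hochberg adjustment over all of them. No covariate was used, and the biological coefficient of variation was 3.9%. The script was also tested on simulated counts with known changes. An exact permutation test of 2 against 2 libraries cannot go below p = 0.333, so none was used. Confidence intervals are the unshrunk coefficient with its standard error and cover the spread between these libraries. Promoter windows are those of RefSeq on GRCm38.p6, the same primary assembly as mm10.

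The replicates of a group differed by more than sampling noise (chi-square per degree of freedom 2.28 with FGF2 and 1.76 without it). Same-numbered libraries did not deviate together (Pearson correlation 0.00206 over genes), so the numbers were not taken as pairs. The 29 genes and all lists were chosen with earlier results of these data known. Every member is named, with up to 3 genes of each pathway list and 2 of each marker list, those with the largest absolute change among called genes with a mean of at least 5 CPM. Some genes that this rule takes are not reported here, and Acat3, Fasn, Acaca, Acacb, Scd2, Fads1, Elovl6, Fgfr3, Slc4a4, S100b, Nefl, Nefm, Col1a1, Col1a2, Vtn, Rgs5, Flt1, Kdr, Pecam1 and markers at 0 or under the filter were named after their values were seen. Alternatives were scaling by RLE, by upper quartile or by total count, no filter, at least 10 counts in every library, DESeq2 1.42.0, limma-voom 3.58.1, the replicate block, an adjusted threshold of 0.01 and each library left out.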

Additional observations from a re-analysis of the deposited data

How the results depend on the processing

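Of the 29 genes, 22 kept their direction and their side of the threshold under the 7 alternatives of scaling, filter and tool, 16 did so with each library left out in turn, and 6 of the 9 called genes (Abca1, Nr1h2, Insig1, Srebf1, Sqle and Acat2) kept both under every alternative run. The replicate block called 6814 genes, changed no call among the 29 and left 7 higher and 2 lower. With DESeq2 4007 genes were called. Upper quartile, total count and limma-voom each called 2 synthesis enzymes lower, where Hmgcs1 joined Sqle, and leaving out 1 library gave 1 to 2. DESeq2 and the threshold of 0.01 called 0 synthesis enzymes higher, DESeq2 with 0 and edgeR and limma-voom with 1 at an unadjusted p under 0.05, and leaving out 1 library gave 0 to 1. The median log2 fold change of the synthesis enzymes was -0.0638 with upper quartile and -0.0553 with total count scaling, and between -0.111 and -0.0449 with 1 library left out. The same fits gave 0.0239 to 0.276 for the regulators and 0.67 to 0.89 for the efflux and LXR genes. Upper quartile scaling also moved the median of all genes, from -0.00082 to -0.027, and total count scaling moved it to -0.018. These 2 shifts were thus not limited to the 29 genes. The cause of the moves with 1 library left out was not tested.

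Among uncalled genes, upper quartile scaling reversed Pmvk (-0.0026), Lss (-0.0229) and Cyp51 (-0.0194), and total count scaling reversed Lss (-0.0144) and Cyp51 (-0.0109). Leaving out 1 library gave ranges that crossed 0 for Pmvk (-0.161 to 0.189), Idi1 (-0.107 to 0.0734), Lss (-0.014 to 0.0124), Cyp51 (-0.0449 to 0.0512), Ebp (-0.034 to 0.373), Sc5d (-0.111 to 0.0369), Dhcr7 (-0.0907 to 0.00889), Insig2 (-0.0557 to 0.283) and Abcg1 (-0.031 to 0.101). Counts of 16 to 46 for Fdps and 21 to 45 for Nr1h3 limit what these libraries can resolve for those genes.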
